A study of Drosophila melanogaster with 10 samples.

Results

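Glutathione S-transferase (GST) genes were compared between wild-type and *tbrd-1* mutant testes of *Drosophila melanogaster*. A GST gene was counted where its current symbol belongs to class D, E, O, S, T or Z or is *Mgstl*, the microsomal gene, and where a probe set of its own exists on the array. The genes were picked by name and not by a measured value, with earlier results of these data known. Of 36 GST genes in the gene table, 35 had such a probe set, among 11982 genes measured in this way. They were 11 class D, 13 class E, 3 class O, 1 class S, 4 class T and 2 class Z genes and *Mgstl*. *GstE8* had no probe set of its own and was not analysed here. *GstE9*, *GstO2* and *Mgstl* had 2 probe sets each, and the brighter one was used.

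GSTs join the tripeptide glutathione to reactive compounds, which makes these compounds more soluble and ready for export. The Delta (D) and Epsilon (E) classes are the large insect families known from insecticide and plant toxin metabolism, and most of their genes lie in tandem clusters. Omega (O), Sigma (S), Theta (T) and Zeta (Z) classes are shared with other animals, and the microsomal enzyme is an unrelated membrane protein with the same activity. In flies, GST transcripts are best known from gut, Malpighian tubule and fat body, while in mammals several GSTs are abundant in testis, where they act on products of lipid peroxidation.

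The study asked which transcripts depend on tBRD-1, a bromodomain protein restricted to primary spermatocytes. Wild-type flies were of the strain w1118, and mutants were homozygous for the *tbrd-1* allele written tbrd-11/tbrd-11 in the labels, which carries an insertion of the P element P(EPgy2) in *tbrd-1*. Whole testes of males 0 to 2 days old, kept at 25 °C, were used. Each of the 10 Affymetrix arrays, 5 per genotype, was hybridised with independent RNA pooled from 25 animals. The deposited values are signal intensities on a linear scale without a unit, normalized by the authors, and the median intensity of an array lay between 68.0 and 78.0. With 5 arrays a group, precision is set by that number. In RNA of whole testes, fewer cells of a type and less RNA per cell cannot be told apart.

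*tbrd-1* itself read between 630 and 975 on the wild-type arrays and between 10 and 16 on the mutant arrays, a log2-fold change of -5.83 (limma adjusted p = 4.4e-10). The sperm gene *Mst87F* was bright in both genotypes, with a log2-fold change of 0.04. Genes of tissues that adjoin the testis were also bright. The mean log2 intensity of 14 measured gut enzyme genes was between 7.88 and 9.11 on wild-type replicates 1, 3 and 4 and mutant replicate 3, and between 5.03 and 6.03 on the other arrays. The ejaculatory bulb genes *Ebp* and *EbpII* had a mean log2 intensity between 12.05 and 13.41 on mutant replicates 2, 4 and 5 and on replicates 2 and 3 of wild-type, and between 5.25 and 7.35 elsewhere. For 8 accessory gland genes, all 10 arrays lay between 13.7 and 13.87. GST results that moved with the gut genes are given with these values.

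A log2-fold change here is the mean log2 intensity of the mutant arrays minus that of the wild-type arrays. A gene was called where its limma adjusted p (Benjamini-Hochberg, over all 18769 probe sets tested) was at most 0.05 and the log2-fold change was at least 1 in size. By this rule 2 of 35 GST genes were called down, *GstD2* and *GstE1*, and 0 were called up. That is 5.71% of the GST genes, beside 2.36% of all probe sets called down and 1.18% called up. Of the 35 genes, 19 (54.3%) had an unadjusted p below 0.05, beside 46.4% of all probe sets. The methods' t-test, Benjamini-Hochberg adjusted, called the same 2 genes.

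Without the fold minimum, the adjusted p was passed by 9 GST genes that were lower in mutants and 7 that were higher. These shares of 25.7% and 20% stood beside 14.7% of all probe sets lower and 21.6% higher. When each array was centred on its median, which raised every log2-fold change by 0.104, the split was 8 lower and 10 higher. All 5 mutant arrays lay below all 5 wild-type arrays for 6 GST genes (17.1%, beside 10.3% of all probe sets) and above them for 6 others (17.1%, beside 13.6%). The median log2-fold change of the 35 genes was -0.06, beside 0.07 over all probe sets tested, and became 0.05 with median centring, beside 0.17.

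**Figure D1:**
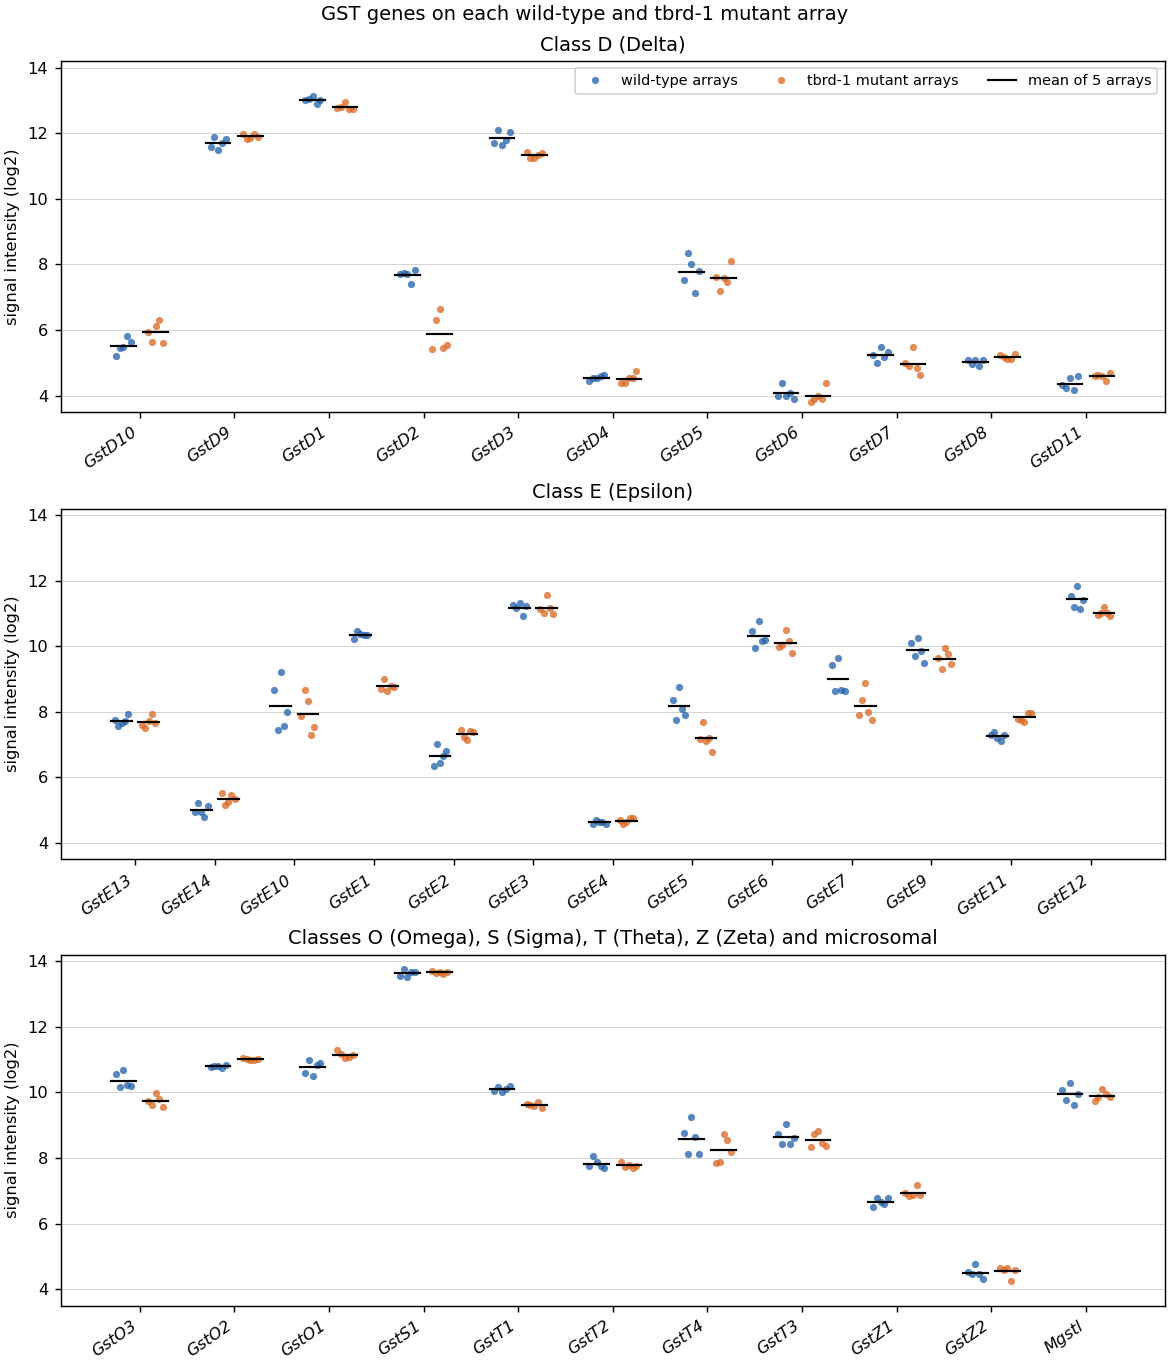
Signal intensity (log2) of the 35 GST genes, with a point for each of the 5 wild-type arrays (blue) and 5 *tbrd-1* mutant arrays (orange) and a line at the mean of each group, in chromosomal order within a class. The mutant points of *GstD2* and *GstE1* sit well below the wild-type points, while most other genes overlap or lie close together.

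*GstD2* had the largest decrease among the GST genes when all 10 arrays were used. Its enzyme conjugates isothiocyanates, pungent plant compounds, and has been studied in the fly's taste organs. The wild-type arrays read 210, 212, 208, 171 and 227 for replicates 1 to 5, and the mutant arrays read 43, 80, 99, 44 and 47. No mutant array reached the wild-type range, and mutant replicates 2 and 3 stood above the other mutant arrays. The mean fell from 206 ± 20.7 to 62.6 ± 25.5 (SD, n = 5 each), which is 28.7% of wild-type. The log2-fold change was -1.80 (SE 0.22, limma adjusted p = 9.7e-05). When the 5 arrays with bright *Ebp* and *EbpII* were left out, which left 3 wild-type and 2 mutant arrays, it was -1.63 with limma adjusted p = 0.057, and the call was lost.

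The neighbours of *GstD2* did not share its size of change. Whether probes of a GST gene also match its paralogs could not be checked, here or in the other clusters. The D genes lie on chromosome arm 3R in the order *GstD10*, *GstD9*, *GstD1*, *GstD2* to *GstD8* in number order, and *GstD11*. Other genes lie between 2 pairs of them, lncRNA:CR46015 between *GstD1* and *GstD2* and *CG10035* between *GstD8* and *GstD11*. *GstD3*, whose protein lacks the N-terminal stretch of other Delta GSTs, read 3366, 4394, 3214, 3523 and 4171 on the wild-type arrays. On the mutant arrays *GstD3* read 2747, 2442, 2417, 2560 and 2708. These groups did not overlap, and the log2-fold change was -0.53 (SE 0.09, limma adjusted p = 0.0010).

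*GstD1*, the Delta enzyme known for acting on the insecticide DDT, lies on the other side. It went from 8278 ± 479 to 7144 ± 457 (SD, n = 5 each), with a log2-fold change of -0.21 (limma adjusted p = 0.021), and the groups overlapped because mutant replicate 3 read 7925 and wild-type replicate 4 read 7618. Median centring made it -0.11 (limma adjusted p = 0.19). *GstD8* was dim and slightly higher, at 36.6 ± 1.82 against 32.6 ± 1.95, with a log2-fold change of 0.17 (limma adjusted p = 0.048) and no overlap. *GstD8* passed this threshold in 9 of 23 alternative fits.

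The other 7 class D genes did not pass the adjusted p. *GstD10* read 37, 44, 45, 57 and 50 in wild-type and 62, 50, 70, 80 and 49 in mutants, with a log2-fold change of 0.41 (SE 0.15, limma adjusted p = 0.057). *GstD7* read 38, 32, 45, 36 and 40 in wild-type and 32, 30, 45, 29 and 25 in mutants, with a log2-fold change of -0.27 (SE 0.14, limma adjusted p = 0.17). In both genes the 2 groups of arrays overlapped. The remaining 5 genes, *GstD4*, *GstD5*, *GstD6*, *GstD9* and *GstD11*, had log2-fold changes between -0.17 (*GstD5*) and 0.23 (*GstD11*). *GstD4*, *GstD6* and *GstD11* had a mean intensity below 27.1, the bound of the dimmest probe sets, where a difference in transcript may leave little difference in intensity. The median over class D was -0.07, and 0.03 with median centring.

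**Figure D2:**
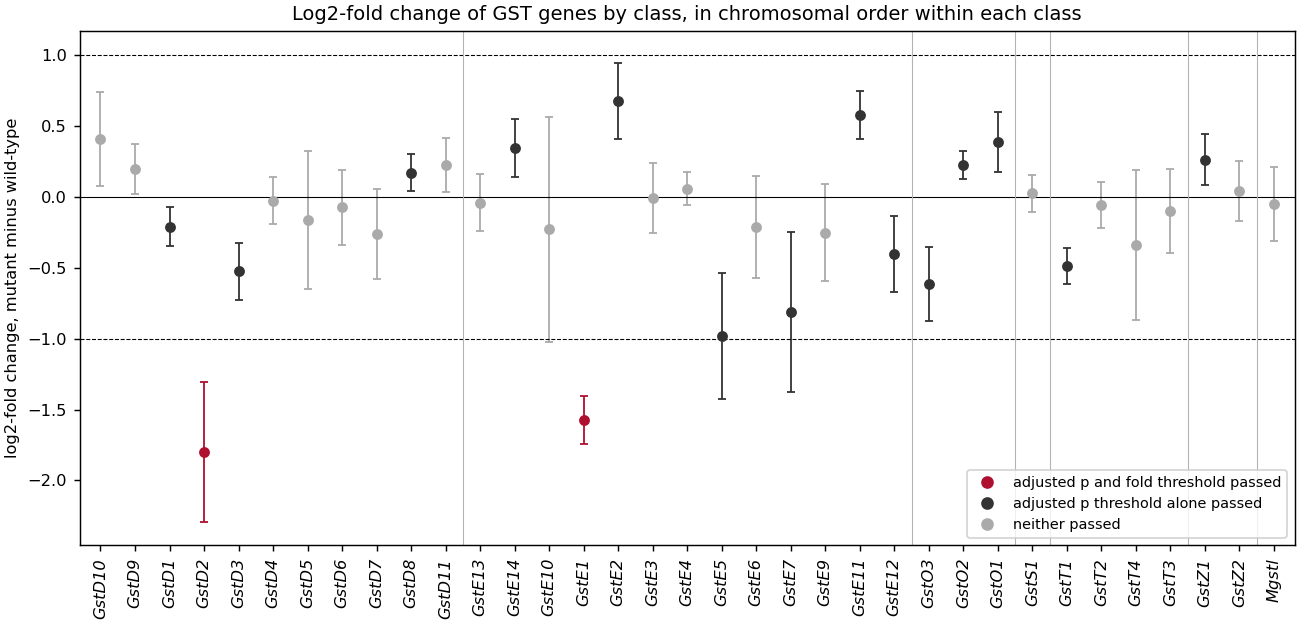
Log2-fold change (mutant minus wild-type) of each of the 35 GST genes with its 95% confidence interval, by class and in chromosomal order within a class, with dashed lines at -1.0 and 1.0. *GstD2* at -1.80 and *GstE1* at -1.58 lie below the lower dashed line, and no gene lies above the upper one.

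*GstE1* was the other GST gene called. Its enzyme is an Epsilon GST with activity on hydroxynonenal, a product of lipid peroxidation. It read 1189, 1416, 1335, 1301 and 1300 on the wild-type arrays and 411, 513, 395, 447 and 433 on the mutant arrays. The groups lay far apart and each was narrow, with a mean of 1308 ± 81.7 in wild-type and 440 ± 45.5 in mutants (SD, n = 5 each), or 33.5% of wild-type. The log2-fold change was -1.58 (SE 0.08, limma adjusted p = 8.2e-08), and *GstE1* was called in 23 of 23 alternative fits.

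On chromosome arm 2R, *GstE1* lies between *GstE10* and *GstE2*, with no other gene in between, and *GstE3* follows *GstE2*. *GstE2* moved the other way. It read 81, 130, 87, 101 and 112 in wild-type and 173, 150, 142, 172 and 168 in mutants, so that every mutant array was above every wild-type array. Its log2-fold change was 0.67 (SE 0.12, limma adjusted p = 0.0014), the largest increase among the GST genes on all 10 arrays. *GstE3* read 2329 ± 223 in wild-type and 2326 ± 404 in mutants, at a log2-fold change of -0.01 and with a 95% confidence interval of -0.26 to 0.23. *GstE10* had a log2-fold change of -0.23 with an interval of -1.02 to 0.56, and its wild-type arrays spread from 173 to 593.

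*GstE5* and *GstE7*, further along the same cluster, were lower in mutants by less than the fold minimum. *GstE5* read 328, 215, 436, 272 and 240 in wild-type and 144, 207, 139, 148 and 109 in mutants, without overlap but with wild-type replicate 2 close to mutant replicate 2. Its log2-fold change was -0.98 (SE 0.20, limma adjusted p = 0.0031), just short of the bound of -1.0. It became a call without mutant replicate 2 (-1.11) or without wild-type replicate 2 (-1.09), 4 (-1.003) or 5 (-1.05).

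*GstE7* read 683, 402, 793, 405 and 396 in wild-type and 240, 330, 476, 256 and 217 in mutants. Mutant replicate 3 lay above 3 wild-type arrays, so the groups overlapped. Its log2-fold change was -0.81 (SE 0.26, limma adjusted p = 0.029). The adjusted p threshold was no longer passed when wild-type replicate 1 or 3 or mutant replicate 1, 4 or 5 was left out, with limma adjusted p between 0.060 and 0.072.

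Of the other measured class E genes, *GstE11* and *GstE14* were higher and *GstE12* was lower by the adjusted p. *GstE11* lies 12 genes from the cluster and went from 153 ± 12.1 to 228 ± 20.1 (SD, n = 5 each), without overlap, with a log2-fold change of 0.57 (limma adjusted p = 0.00017). *GstE14*, known as Noppera-bo and needed for ecdysteroid synthesis, went from 32.4 ± 3.58 to 41.0 ± 4.12 with overlap, a log2-fold change of 0.34 (limma adjusted p = 0.014). *GstE12* went from 2799 ± 566 to 2087 ± 151, a log2-fold change of -0.40 (limma adjusted p = 0.023), and mutant replicate 3 at 2334 lay above wild-type replicate 4 at 2263. *GstE4*, *GstE6*, *GstE9*, *GstE10*, *GstE3* and *GstE13* did not pass. Their log2-fold changes lay between -0.25 (*GstE9*) and 0.06 (*GstE4*). *GstE4* was dim, with a mean intensity below the bound of 27.1.

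Over class E, 4 of 13 genes were lower and 3 higher by the adjusted p, beside 14.7% and 21.6% of all probe sets. The median log2-fold change of the class was -0.21, or -0.11 with median centring. The 9 measured genes of the cluster from *GstE10* to *GstE9* had a median of -0.23, and 7 of them had a negative value. The 4 Epsilon genes elsewhere on 2R had a median of 0.15.

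Class O held genes that moved in opposite directions side by side. Omega GSTs carry a cysteine in the active site and reduce disulfides and dehydroascorbate rather than conjugating toxins. The 3 genes lie together on 3L with *se*, the Omega-type enzyme of red eye pigment synthesis, between *GstO3* and *GstO2*. *GstO3* read 1497, 1137, 1640, 1192 and 1166 in wild-type and 851, 790, 1019, 888 and 759 in mutants, a log2-fold change of -0.61 (SE 0.12, limma adjusted p = 0.0020). *GstO1* read 1554, 2018, 1437, 1821 and 1923 in wild-type and 2490, 2314, 2134, 2172 and 2243 in mutants, a log2-fold change of 0.38 (SE 0.10, limma adjusted p = 0.0091). Neither gene had overlapping groups.

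*GstO2* had the narrowest spread among the GST genes. It read 1766, 1799, 1791, 1723 and 1821 in wild-type and 2138, 2064, 2048, 2032 and 2080 in mutants, with a coefficient of variation of 2.10% and 1.97%. Its log2-fold change of 0.22 (SE 0.04, limma adjusted p = 0.0029) was therefore small and without overlap. The dimmer probe set of *GstO2* gave -0.07 (limma adjusted p = 0.50), so the increase was seen by 1 of its 2 probe sets.

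In class T, *GstT1* was lower, and its neighbour on 2R, *GstT2*, did not pass the test. Theta GSTs act in mammals on small halogenated compounds. *GstT1* read 1044, 1139, 1037, 1108 and 1176 in wild-type and 801, 781, 766, 830 and 743 in mutants, which is a decrease to 71.3% of wild-type without overlap. The log2-fold change was -0.49 (SE 0.06, limma adjusted p = 5.5e-05), and it passed the adjusted p in 23 of 23 alternative fits. *GstT2* had a log2-fold change of -0.06 with a 95% confidence interval of -0.22 to 0.11.

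The X-linked genes *GstT4* and *GstT3* did not pass the test and varied widely between arrays of the same genotype. *GstT4* read 432, 281, 609, 403 and 276 in wild-type and 229, 234, 428, 373 and 293 in mutants, a log2-fold change of -0.34 (SE 0.24, limma adjusted p = 0.28). *GstT3* read 426, 343, 522, 341 and 394 in wild-type and 320, 428, 450, 354 and 331 in mutants, a log2-fold change of -0.10 (SE 0.13, limma adjusted p = 0.58) that became 0.00 with median centring. In both genes wild-type replicate 3 was the highest of all 10 arrays.

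*GstS1*, the single Sigma GST, abundant in flight muscle, did not pass the test and had a narrow confidence interval. It read 11987, 13977, 11753, 12983 and 13052 in wild-type and 13339, 12660, 13057, 12517 and 13032 in mutants. The log2-fold change was 0.02 (SE 0.06, limma adjusted p = 0.79), with a 95% confidence interval of -0.11 to 0.15. The sign turned with the scaling, to -0.01 when the arrays were centred on ribosomal protein genes.

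Zeta GSTs isomerise maleylacetoacetate in the breakdown of tyrosine. *GstZ1* read 91, 111, 102, 97 and 111 in wild-type and 121, 114, 117, 145 and 117 in mutants, a log2-fold change of 0.26 (SE 0.08, limma adjusted p = 0.030) without overlap. This threshold was passed in 14 of 23 alternative fits and was missed without wild-type replicate 1, 3 or 4 or mutant replicate 1 or 4, with limma adjusted p between 0.051 and 0.074. *GstZ2*, its neighbour on 3R, was dim. It read 23, 22, 27, 22 and 20 in wild-type and 25, 24, 25, 19 and 24 in mutants, a log2-fold change of 0.04 (SE 0.10, limma adjusted p = 0.78).

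*Mgstl* read 1079, 876, 1259, 791 and 997 in wild-type and 848, 936, 1090, 989 and 923 in mutants. These overlapped throughout, with a log2-fold change of -0.05 (SE 0.12, limma adjusted p = 0.76) that became 0.05 with median centring. Its dimmer probe set gave another answer, going from 81.6 ± 13.1 to 113 ± 17.5 (SD, n = 5 each), a log2-fold change of 0.47 (limma adjusted p = 0.014). The groups overlapped here too, as mutant replicate 2 read 91 and wild-type replicate 3 read 102. The 2 probe sets of *GstE9* both missed the threshold, at -0.25 and -0.16.

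GST levels were also read against the gut enzyme genes. All 3 gut-bright wild-type arrays, replicates 1, 3 and 4, were above the other 2 for 5 of the 35 GST genes, *GstE5*, *GstE7*, *GstE9*, *GstO3* and *GstT4*, which is 14.3% beside 9.47% of all probe sets tested. On replicates 1 and 3 alone, where the gut genes were brightest, 12 GST genes were above the other 3 wild-type arrays, which is 34.3% beside 11.4% of all probe sets. This pair of arrays was picked after the values were seen. The 12 genes were *GstE3*, *GstE5*, *GstE6*, *GstE7*, *GstE9*, *GstE10*, *GstE12*, *GstO3*, *GstT3*, *GstT4*, *GstZ2* and *Mgstl*. They included 7 of 13 class E genes and 0 of 11 class D genes. In *GstE3*, *GstE12*, *GstT3* and *Mgstl* the gut-bright wild-type replicate 4 was the lowest wild-type array, at 1955, 2263, 341 and 791. In 9 of the 12, mutant replicate 3 was also the highest mutant array, which is 25.7% of the GST genes beside 4.02% of all probe sets. The 2 measured Malpighian tubule genes, *Irk3* and *NaPi-T*, were highest on the same wild-type arrays. Their mean log2 intensity was 7.96 and 8.29 on wild-type replicates 1 and 3 and between 6.16 and 7.16 on the others. In mutants it was highest on replicate 2, at 7.21. That array was the highest mutant array for 3 GST genes, *GstE1*, *GstE5* and *GstE10*, which is 8.57% beside 17.8% of all probe sets. The part of gut or Malpighian tubule RNA in the GST values was not tested.

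**Figure D3:**
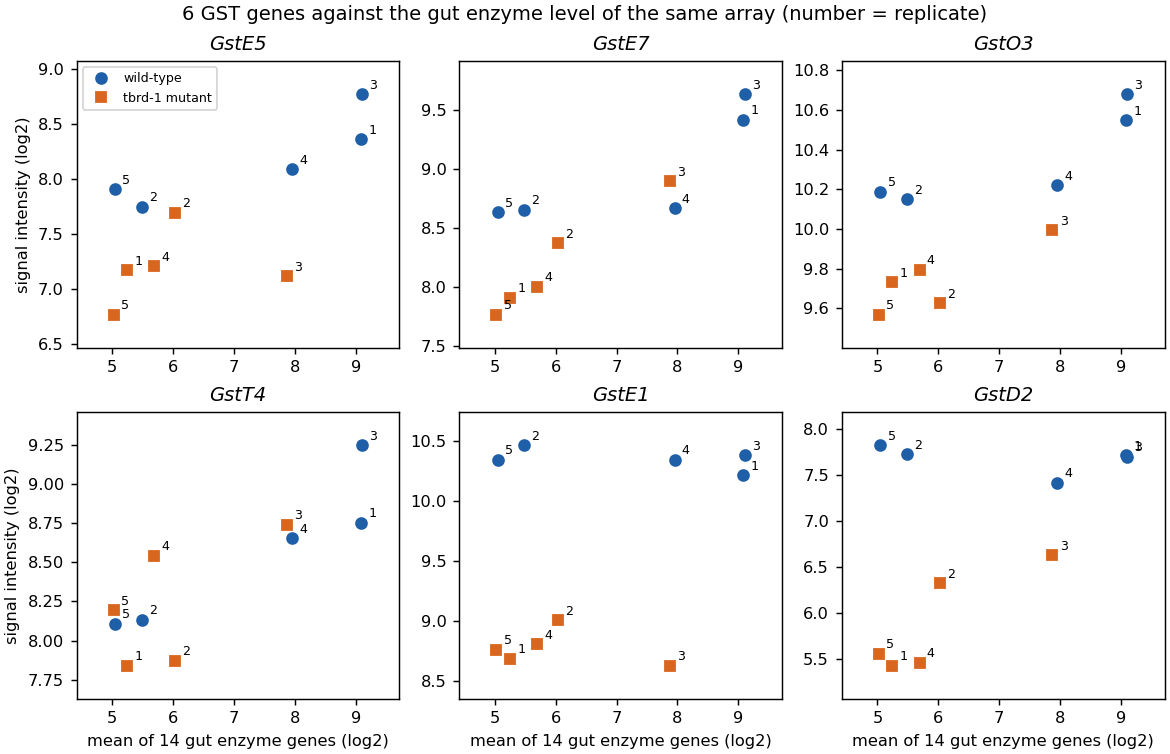
Signal intensity (log2) of 6 GST genes on each array against the mean log2 intensity of 14 gut enzyme genes on the same array, with wild-type arrays as blue circles and mutant arrays as orange squares, numbered by replicate. *GstE7*, *GstO3* and *GstT4* were highest on wild-type replicates 1 and 3, while *GstE1* split by genotype at every gut level. The 6 genes were chosen after their values were seen.

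Of these 12 genes, 11 had a negative log2-fold change, beside 62.9% of all GST genes, the 12 included, and 38.3% of all probe sets. The adjusted p was passed by 4 of the 12, all of them lower in mutants. The wild-type values that picked the 12 also enter their log2-fold changes, so these counts are not independent of the choice. The 14 gut genes had a median log2-fold change of -1.43. With the mean levels of the gut and bulb genes as covariates, 10 of the 12 came nearer to 0, and so did 15 of the other 23 GST genes. The 12 were picked on arrays bright in gut genes, so their shift with this covariate was partly set by the choice. No such count was made over all probe sets. In that fit *GstE7* was -0.47 (limma adjusted p = 0.055), *GstE5* was -0.82 (0.0069), *GstO3* was -0.47 (0.0033) and *GstT4* was -0.08 (0.73).

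Without the 4 arrays bright in gut genes, *GstE5* was -0.62 (limma adjusted p = 0.12) and *GstE7* was -0.63 (0.040). *GstD2* was -2.09 (limma adjusted p = 0.0027) and *GstE1* was -1.59 (0.00025) on the 6 arrays left, so both kept their calls. Of the genes that were higher in mutants, *GstO1* was 0.22 (limma adjusted p = 0.10), *GstE14* was 0.21 (0.26) and *GstZ1* was 0.16 (0.39) without the gut-bright arrays. With the covariates *GstD2* was -1.66 (limma adjusted p = 0.00082) and *GstE1* was -1.65 (2.8e-07). By the adjusted p alone, 8 GST genes were lower and 2 higher without the gut-bright arrays. The counts were 6 and 4 with the covariates, and 3 and 1 without the arrays on which the bulb genes were bright. They were not taken over all probe sets in the same fits, so they are not read as particular to GST genes. Both sets of arrays left out were chosen after the data were seen, and the fits without them also rest on fewer arrays.

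**Figure D4:**
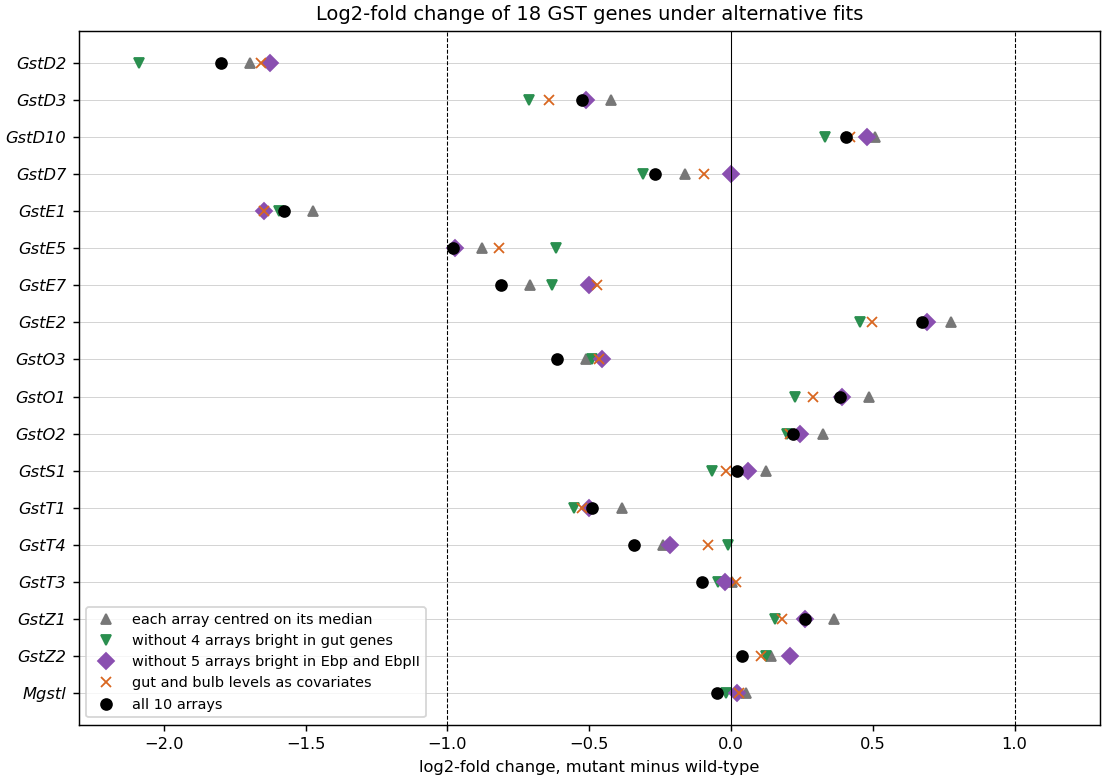
Log2-fold change (mutant minus wild-type) of 18 GST genes from all 10 arrays (black) and from 4 alternative fits, with dashed lines at -1.0 and 1.0. *GstD2* and *GstE1* stayed below -1.0 in all 5 fits, while *GstE5*, *GstE7* and *GstT4* came nearer to 0 without the arrays bright in gut genes.

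Among markers of other cell types, single genes stood out in several lists. The mean log2 intensity of 6 fat body genes was 6.61 to 6.96 in wild-type and 6.19 to 6.39 in mutants, but their median log2-fold change was 0.14, and *Yp3* was called down at -3.80. For 6 cyst cell and hub genes the mean was 5.997 to 6.34 against 5.65 to 5.81, with a median log2-fold change of 0.00 and *esg* called down at -2.61. For 5 muscle genes the mean was 7.95 to 8.32 against 7.36 to 7.98, with a median log2-fold change of -0.39. *Irk3* was called down, from 536 ± 338 in wild-type (SD, n = 5), at a log2-fold change of -1.99. The 8 germline genes, which include *tbrd-1* itself, had a median log2-fold change of -0.09, with *can* also called down and *dj* called up. The part of any of these cell types in the GST values was not tested.

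The spread between arrays of the same genotype was wider for the median GST gene than for the median probe set. The median SD of the log2 intensity was 0.178 in wild-type and 0.146 in mutants over the 35 GST genes, beside 0.136 and 0.118 over all probe sets tested. It was widest for *GstE10*, at 0.753 in wild-type and 0.569 in mutants.

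Genes that supply or use glutathione were read beside the GSTs. Of 16 listed genes of glutathione and thioredoxin metabolism, 13 were measured, 1 was called down and 0 were called up. By the adjusted p alone 3 were lower and 3 higher, and the median log2-fold change was 0.03. Over all probe sets, 2.36% were called down and 1.18% up, and 14.7% were lower and 21.6% higher by the adjusted p alone. An unadjusted p below 0.05 was found for 8 of the 13, beside 46.4% of all probe sets. The called gene was *Prx6c*, a peroxiredoxin, one of the enzymes that reduce peroxides. It read 9498, 11183, 8882, 10705 and 10922 in wild-type and 2206, 2204, 2415, 2413 and 2322 in mutants, a log2-fold change of -2.14 (SE 0.07, limma adjusted p = 4.8e-09). *Prx6c* has near-identical copies, so its probe set may read several of them.

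*Trxr2*, a mitochondrial thioredoxin reductase of the family that stands in for glutathione reductase in flies, had a log2-fold change of -0.76 (limma adjusted p = 7.4e-07). *Ggt-1*, a gamma-glutamyl transferase that breaks down glutathione and its conjugates, was higher at 0.44 (0.0012). *Gclc* and *Gclm*, the catalytic and modifier subunits of the enzyme that limits glutathione synthesis, had log2-fold changes of -0.05 and 0.21 and did not pass the adjusted p.

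The CncC pathway induces many GST genes, with the factor encoded by *cnc* acting together with *maf-S* and held back by *Keap1*. Of 10 listed genes 9 were measured and 0 were called, beside 2.36% of all probe sets called down and 1.18% called up. By the adjusted p alone 1 was lower and 2 were higher, beside 14.7% and 21.6% of all probe sets. An unadjusted p below 0.05 was found for 6 of the 9, beside the 46.4% of all probe sets. *maf-S* was higher, with a log2-fold change of 0.44 (limma adjusted p = 0.0012). *cnc* and *Keap1* had log2-fold changes of -0.26 and -0.32 and did not pass. *Cyp6a8*, a cytochrome P450 gene, read 30, 18, 29, 22 and 80 in wild-type and 179, 245, 184, 35 and 25 in mutants, a log2-fold change of 1.60 (SE 0.66, limma adjusted p = 0.081). Its increase came from mutant replicates 1 to 3, and the groups overlapped. *Cyp6a2*, of the same family, had a log2-fold change of 0.82 (limma adjusted p = 0.043).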

How the data were processed

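Testis RNA of both genotypes was measured on Affymetrix Drosophila Genome 2.0 arrays, 5 per genotype. The deposited table holds the linear signal intensity of 18952 probe sets, rounded to whole numbers and without detection calls. The submitters' processing notes name RMA and Affymetrix Expression Console, and neither version is given in these sources. All 10 columns were matched to samples by name.

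The log2 of the intensity was fitted as deposited in R 4.3.3 with limma 3.58.1 (lmFit, then eBayes), over 18769 probe sets without the 183 controls, with genotype as the single term. Plots used matplotlib 3.10.9 in Python 3.11.15. The fit was tested on simulated data. By the platform annotation, 13647 probe sets had 1 gene, 402 had several and 4720 had no gene. A gene table updated 13544 of the symbols. That table served for names, chromosome arms and gene order only.

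The members and gene lists were chosen with earlier results of these data known, so lists are described by counts and medians. Full values are given for called GST genes and, beyond those, the 3 of each class with the largest absolute log2-fold change, and for related lists the called genes and the 2 with the largest change. *GstE11*, *GstE12*, *GstE14*, *GstD1*, *GstD8* and some related genes were named after their values were seen. Alternatives were the methods' t-test, another fold change, centring, variance models, array weights, filters, other probe sets, a replicate block and leaving out arrays.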

Additional observations from a re-analysis of the deposited data

Results flagged for a closer look

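*GstZ1* and *GstZ2*, neighbours on 3R, each had 1 array far from the others of its genotype, and it was the same array. In *GstZ1* mutant replicate 4 read 145 while the other mutant arrays read 114 to 121. In *GstZ2* mutant replicate 4 read 19 while the others read 24 to 25, so the deviations went in opposite directions. They were 2 of 70 groups of 5 arrays checked with Dixon's test, and chance marks about 1 in 20.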

How the results depend on the processing

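*GstE1* was called in 23 of 23 alternatives and *GstD2* in 22 of 23. None of the 16 GST genes that passed the adjusted p alone changed sign in any alternative, while 11 of the other 19 did. Without the 5 *Ebp*-bright arrays, 1 GST gene was called down. With no fold minimum, 9 were down and 7 up, beside 2751 and 4052 of all probe sets. Leaving out 1 array at a time gave 2 to 3 GST genes down and 0 up, and the third gene was *GstE5*, also called with array weights and with centring on ribosomal protein genes. The median log2-fold change of GST genes was 0.046 with median centring, -0.13 without the dimmest probe sets and 0.021 without the *Ebp*-bright arrays. For class D it was 0.029, -0.19 and -0.00067 in these fits, -0.15 without the arrays bright in gut genes, and -0.17 to -0.022 with 1 array left out. For class E it was -0.075 without the gut-bright arrays, -0.0205 without the *Ebp*-bright arrays, -0.0055 with covariates, and -0.32 to -0.060 with 1 array left out, the nearest to 0 without wild-type replicate 3. For class O it was 0.32 with median and 0.19 with ribosomal centring. For class T it was -0.080 without the gut-bright arrays, -0.083 with covariates, and -0.32 to -0.11 with 1 array left out, again nearest to 0 without wild-type replicate 3. Signs turned for *GstS1* (-0.0088 with ribosomal centring, -0.068 without gut-bright arrays, -0.016 with covariates, -0.0070 to 0.055 with 1 array left out), *GstT3* (0.0026 with median centring, 0.019 with covariates), *GstZ2* (-0.0082 to 0.11 with 1 array left out) and *Mgstl* (0.054 with median centring, 0.021 without *Ebp*-bright arrays, 0.030 with covariates, -0.13 to 0.038 with 1 array left out). The cause was not tested. With the replicate number as a block, 2 GST genes were down and 0 up. Same-numbered arrays had deviations correlated between -0.31 and 0.48. Differently numbered arrays were not compared, so these values do not settle whether the numbers pair arrays. Dim genes such as *GstD4*, *GstD6* and *GstZ2* allow no firm statement.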

Other observations

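Genes with a GST-like fold but another class name were measured for 6 of 7 listed genes, and 0 were called. Over all probe sets, 2.36% were called down and 1.18% up. Of the 6 genes, 4 had an unadjusted p below 0.05, beside 46.4% of all probe sets. By the adjusted p alone 3 were lower and 1 higher, beside 14.7% and 21.6% of all probe sets. *Gdap1*, related to a human gene of peripheral neuropathy, had a log2-fold change of -0.48 (limma adjusted p = 0.0025) and *Clic*, an intracellular chloride channel protein, had -0.29 (0.013). The Omega-type gene *se*, which lies between *GstO3* and *GstO2*, had 0.09 (0.53). It was dim, with a mean intensity below the bound of 27.1.

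Transporters and other enzymes that act after or beside GSTs were measured for 8 of 11 listed genes, and 0 were called. Over all probe sets, 2.36% were called down and 1.18% up. An unadjusted p below 0.05 was found for 4 of the 8, beside 46.4% of all probe sets. *Mdr65*, an ABC transporter of the blood-brain barrier, was the 1 gene past the adjusted p, and it was higher in mutants. By the adjusted p alone, 14.7% of all probe sets were lower and 21.6% higher. *Mdr65* was dim, at 29 to 33 in wild-type and 34 to 44 in mutants, without overlap. Its log2-fold change was 0.27 (limma adjusted p = 0.016). *Mdr50*, of the same family, read 189, 36, 257, 128 and 30 in wild-type and 25, 27, 86, 29 and 28 in mutants, a log2-fold change of -1.43 (SE 0.61, limma adjusted p = 0.088). Its 4 highest arrays were the 4 bright in gut enzyme genes. *MRP*, a transporter of glutathione conjugates, had a log2-fold change of -0.48 (limma adjusted p = 0.073).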
